A study of Saccharomyces cerevisiae with 3 samples.

Results

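The genes described here encode the transcription factors that bring RNA polymerase III to its promoters in Saccharomyces cerevisiae. They were taken as a fixed set of 9 genes by their names in the platform annotation of the array, 6 for TFIIIC, 2 for TFIIIB and 1 for TFIIIA, out of 5325 genes with a named probe. All 9 were found, each with 2 probes, which gives 18 of the 18794 named probes. A pooled variomics library of essential genes, in which a strain holds a large set of mutant versions of its gene and can be told from the others by a pair of short DNA tags, was selected with a drug to look for resistant strains. The samples were genomic DNA of cells that had been sporulated and selected, on 1 two-colour tag array each for cycloheximide, rapamycin and tunicamycin. The sample descriptions also give an amount for each drug, which was not used here. On every array the drug-selected DNA carried Cy5, and DNA of the untreated pool carried Cy3. The rapamycin sample is named "single" where the others are named as a pool, a word that the sources used here do not explain. No drug had a replicate, so no difference was tested and no p-value is given.

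RNA polymerase III makes transfer RNAs, the 5S ribosomal RNA and other small RNAs. At a transfer RNA gene TFIIIC binds the A and B boxes inside the gene and places TFIIIB upstream of the start, and TFIIIB then recruits the polymerase. At the 5S gene TFIIIA binds first and serves as the platform for TFIIIC. In yeast each of the 9 genes is essential, and transcription by the polymerase is known to fall when the TOR pathway, the target of rapamycin, is inhibited. Cycloheximide blocks translation elongation, and tunicamycin blocks the start of N-linked glycan synthesis.

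A value is the deposited log2 ratio minus the median of its array, so that 0 is the ratio of a typical spot. A negative value means a lower ratio of drug-selected to untreated DNA than at a typical spot. Its sign alone does not tell whether a strain had more or less DNA than in the untreated pool. The direction was taken as Cy5 over Cy3, which the labelled dyes make likely but the values do not state. With the opposite direction every sign below would turn, and members called depleted would be called enriched. Gene values average the probes that were measured and are given with the SD over those probes and their number n. That SD is scatter between tags on 1 array and does not hold the spread between selections. The spread unit of an array, its scaled median absolute deviation of gene values, was 0.924 for cycloheximide, 1.06 for rapamycin and 0.914 for tunicamycin. A call of depleted or enriched required 2 or more measured probes, a gene value 3 or more units away from 0, and all probes 2 or more units away on that side. The thresholds for depletion were therefore -2.77, -3.17 and -2.74. The measured spots numbered 18680, 19558 and 19098, and 66.5%, 41.0% and 64.3% of them matched a whole-number ratio, that is the log2 of a quotient of integers no larger than 10, within 0.0005.

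No member was enriched on any array, and TFC1 and TFC6 were depleted on all 3. Both kept the rapamycin call under every alternative run. The cycloheximide call of both was lost with the highest probe of each gene and with whole-number ratios left out. TFC1 also lost its tunicamycin call under both settings. Those settings recomputed the spread unit, to 1.30 and 1.64 under cycloheximide and 1.23 and 1.43 under tunicamycin, which set the thresholds farther from 0. Under cycloheximide the highest probe of TFC6, at -3.27, still lay past the reported threshold of -2.77, while that of TFC1, at -2.54, did not. At the stricter threshold of 4 units for the mean and 3 for each probe TFC1 was called only under rapamycin. Under cycloheximide 4 of the 7 members with 2 measured probes were depleted, against 15.2% of all genes tested in the same way. Under rapamycin 2 of 5 were depleted, against 6.45%. Under tunicamycin 5 of 7 were depleted, against 13.6%. The background covers every gene named on the array, whether or not it belongs to the essential-gene pool of the labels. Enrichment was called for 0.0485%, 0.0747% and 0.12% of all genes. Over all 9 members the median gene values were -3.39, -5.79 and -3.18 under cycloheximide, rapamycin and tunicamycin, and over all genes they were -0.04, -0.21 and -0.09.

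Single probes show the members more fully than the calls do, because 8 of their 54 spots were empty and a gene with 1 measured probe could not be called. When 1 measured probe was enough, the rule called 6 of 9 members depleted on the cycloheximide array and 5 of 9 on each of the others, against 12.8%, 11.7% and 12.5% of all genes. Of the 46 measured spots 32 lay at or below the depletion threshold of their array and 8 lay within 1 unit of 0. Under cycloheximide each of the 9 members had at least 1 probe at or below the threshold. Under rapamycin 8 had one, BDP1 being the exception, and under tunicamycin 7 had one, TFC4 and TFC8 being the exceptions. In each of these 3 cases 1 of the gene's probes was empty. Over all named genes 9.28%, 9.09% and 9.14% of the measured probes lay at or below the threshold. The share of all genes with at least 1 such probe was not counted, so the counts of 9, 8 and 7 members have no direct background.

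**Figure D1:**
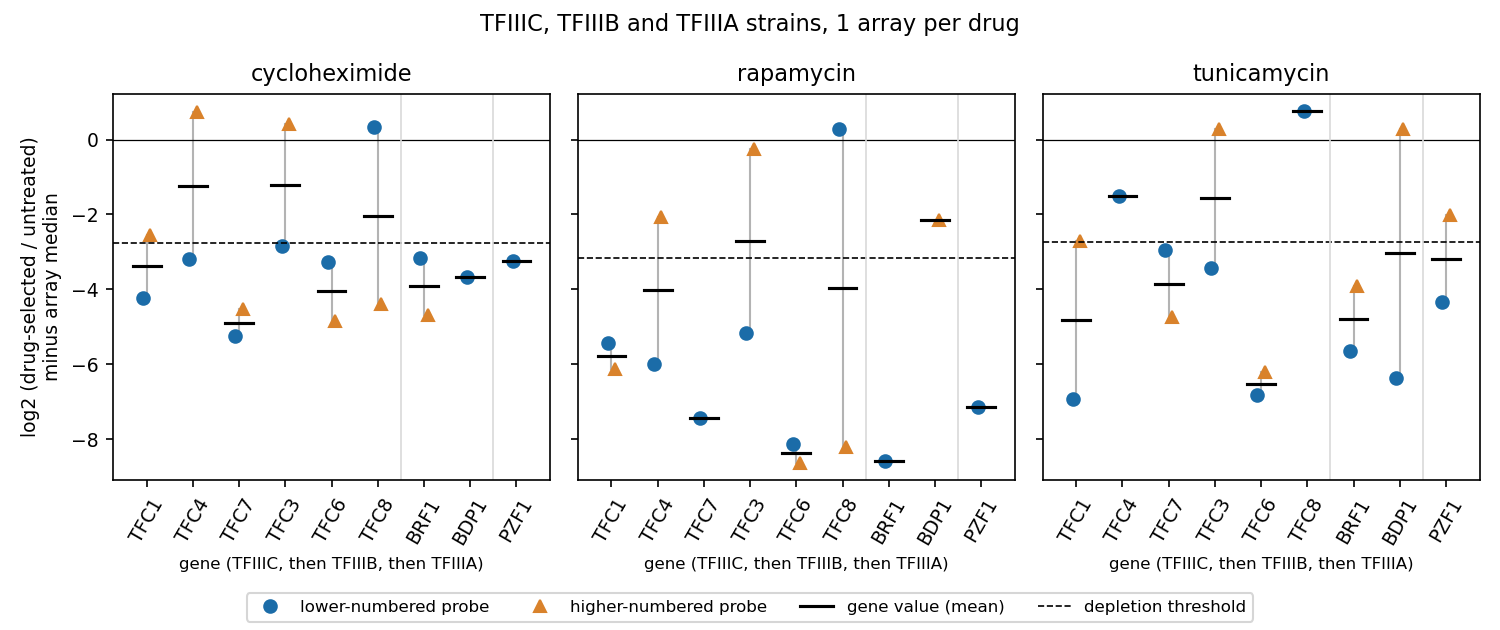
Log2 ratio of drug-selected over untreated DNA minus the array median (vertical axis) for the 9 genes on each of the 3 arrays, with the lower-numbered probe as a circle, the higher-numbered probe as a triangle, the gene value as a bar and the depletion threshold dashed. TFC6 lies below the threshold with both probes on every array, while TFC3 and TFC8 have 1 probe near 0 on every array.

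TFIIIC has 2 lobes. The lobe that binds the A box and assembles TFIIIB holds Tfc1, Tfc4 and Tfc7. TFC1 (YBR123C), which encodes a subunit with a part in A box recognition, had probes at -4.23 and -2.54 under cycloheximide, -5.44 and -6.14 under rapamycin, and -6.92 and -2.71 under tunicamycin. Its gene values were -3.39 ± 1.19, -5.79 ± 0.49 and -4.81 ± 2.97 (SD, n = 2 each), and it was depleted on all 3 arrays. The probes differed least under rapamycin, by 0.70, and most under tunicamycin, by 4.21. TFC7 (YOR110W), which encodes another subunit of this lobe, had probes at -5.24 and -4.54 under cycloheximide and at -2.96 and -4.74 under tunicamycin. Under rapamycin its lower-numbered probe stood at -7.43 and the other was empty. TFC7 was the lowest of the 9 members under cycloheximide, at -4.89 ± 0.50 (n = 2), 29.7-fold below the array median and 22nd from the lowest of 5192 genes, where it was depleted, as it was under tunicamycin at -3.85 ± 1.26 (n = 2).

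TFC4 (YGR047C) encodes the tetratricopeptide repeat subunit that contacts TFIIIB. Its lower-numbered probe stood at -3.20 under cycloheximide, -5.98 under rapamycin and -1.51 under tunicamycin. Its higher-numbered probe had 0.74 under cycloheximide and -2.07 under rapamycin, and was empty under tunicamycin. The higher-numbered probe was thus the less negative on both arrays that measured it, by 3.94 and 3.91, and TFC4 was called on no array. Its gene values were -1.23 ± 2.78 (n = 2), -4.03 ± 2.77 (n = 2) and -1.51 (n = 1), of which the rapamycin value passed the threshold for the mean but its higher-numbered probe did not pass that for probes.

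The lobe that binds the B box holds Tfc3, Tfc6 and Tfc8. TFC6 (YDR362C), a subunit that acts with Tfc3 in binding the B box, had probes at -3.27 and -4.84 under cycloheximide, -8.12 and -8.63 under rapamycin, and -6.83 and -6.22 under tunicamycin. Its gene values of -4.05 ± 1.11, -8.38 ± 0.36 and -6.53 ± 0.43 (n = 2 each) were 16.6-fold, 332-fold and 92.1-fold below the array median. It was the lowest member under tunicamycin and the lowest of those with 2 measured probes under rapamycin. The rapamycin array had no measured deposited value below -10, and its lowest spot stood at -8.67 relative to the median, so TFC6 lay close to the edge of that array's range and its depth there is bounded by that edge.

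TFC3 (YAL001C), the largest subunit and the main contact with the B box, and TFC8 (YPL007C), which links the lobes, were called on no array. Where both probes of these genes were measured, they disagreed. The lower-numbered probe of TFC3 stood at -2.85, -5.16 and -3.43 under cycloheximide, rapamycin and tunicamycin, at or past the threshold each time. Its higher-numbered probe stood at 0.42, -0.26 and 0.29. The same probe was near the array median on all 3 arrays, and on each its deposited value was a whole-number ratio. TFC8 showed the opposite arrangement: its lower-numbered probe stood at 0.32, 0.27 and 0.76, and its higher-numbered probe at -4.39 and -8.20 under cycloheximide and rapamycin, while it was empty under tunicamycin. The probes of TFC8 were 8.47 apart under rapamycin, the widest gap of any member. The TFC8 value of 0.76 (n = 1) under tunicamycin, the highest of all members on any array, therefore rests on the probe that lay near 0 on the other arrays too. Among the 46 measured spots of the members 6 were whole-number ratios, and they lay between -0.26 and 0.74. With integers no larger than 10 the lowest such ratio lies above the depletion threshold of every array. No probe past the threshold could therefore have been among them. Whether the signal of such spots was low was not tested, since channel signals were not analysed here.

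**Figure D2:**
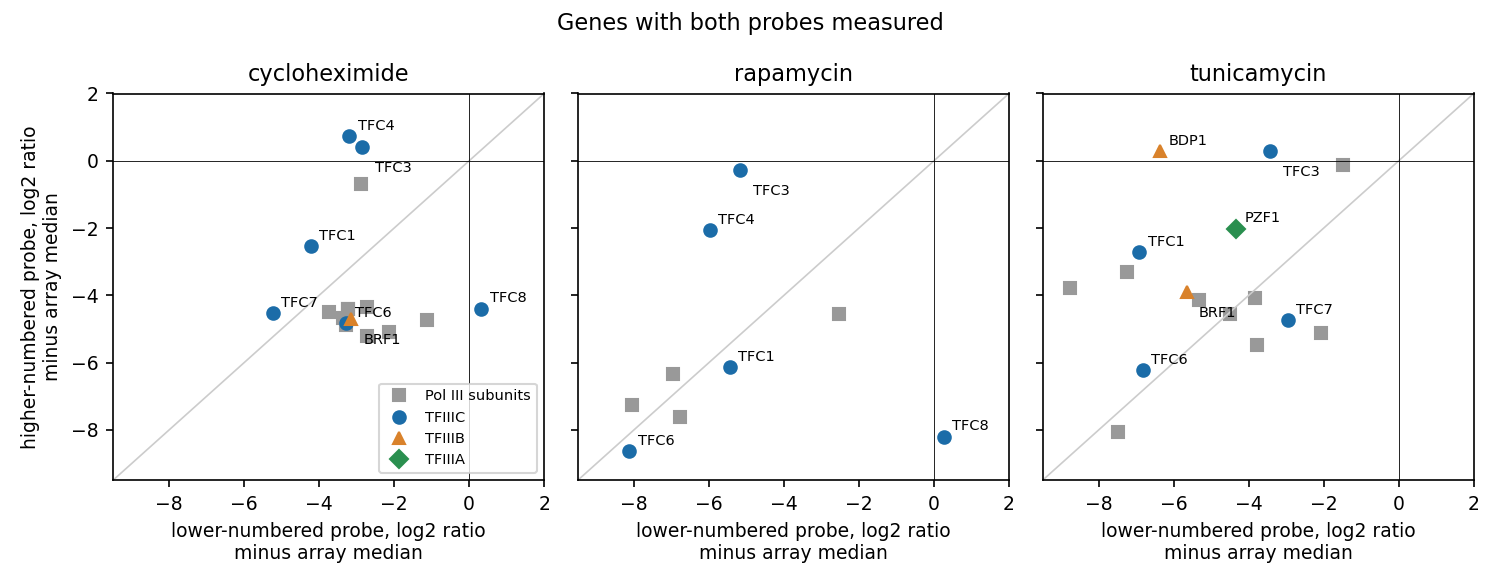
Lower-numbered (horizontal axis) against higher-numbered probe (vertical axis), each as log2 ratio minus the array median, for TFIIIC, TFIIIB and TFIIIA genes and the subunits particular to RNA polymerase III with both probes measured, 1 panel per array; the grey diagonal marks equal probes. TFC3 and TFC4 lie far above the diagonal under cycloheximide and rapamycin, and TFC8 far below it.

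TFIIIB consists of Brf1, Bdp1 and the TATA-binding protein. BRF1 (YGR246C), related to the polymerase II factor TFIIB, had probes at -3.16 and -4.69 under cycloheximide and at -5.66 and -3.91 under tunicamycin, with gene values of -3.92 ± 1.08 and -4.78 ± 1.24 (n = 2 each), and it was depleted on both arrays. Under rapamycin its only measured probe stood at -8.59, the lowest gene value of the 9 members on that array and close to its edge. BDP1 (YNL039W), the SANT domain protein that completes the complex, had 1 measured probe under cycloheximide, the lower-numbered at -3.68, and 1 under rapamycin, the higher-numbered at -2.14. Under tunicamycin both were measured, at -6.36 and 0.29, and their mean of -3.04 ± 4.70 (n = 2) was not called. The higher-numbered probe of BDP1 was thus the less negative where both were measured, and the rapamycin value of BDP1, the highest of the 9 members there, rests on it alone. SPT15 (YER148W), the TATA-binding protein that all 3 nuclear RNA polymerases use and so not a member, had -4.06 ± 1.18 (n = 2), -8.17 (n = 1) and -7.63 ± 0.59 (n = 2) and was depleted under cycloheximide and tunicamycin.

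TFIIIA is the product of PZF1 (YPR186C), a zinc finger protein. Its lower-numbered probe stood at -3.23 under cycloheximide, -7.14 under rapamycin and -4.34 under tunicamycin. Its higher-numbered probe was empty on the first 2 arrays and stood at -2.02 under tunicamycin, where PZF1 was depleted at -3.18 ± 1.64 (n = 2). The single probe values under cycloheximide and rapamycin lay past the threshold as well, but could not be called by the rule of 2 probes.

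Set side by side, the factors overlapped. The TFIIIC values ranged from -4.89 to -1.22 under cycloheximide, from -8.38 to -2.71 under rapamycin and from -6.53 to 0.76 under tunicamycin, with medians of -2.71, -4.91 and -2.71. TFIIIB had medians of -3.80, -5.36 and -3.91 over its 2 genes, and TFIIIA had -3.23, -7.14 and -3.18. The TFIIIC median was the least negative on each array by this measure, but the order depended on the choice of probe and spot. The TFIIIB and TFIIIA values lay inside the TFIIIC range under cycloheximide and tunicamycin, and under rapamycin BRF1 lay below that range and BDP1 above it. With the lowest probe of each gene in place of the mean, the medians of TFIIIC and TFIIIB were -4.31 and -4.18 under cycloheximide and -6.79 and -5.36 under rapamycin. With the highest probe they were -2.11 and -1.81 under tunicamycin. With whole-number ratios left out they were -5.12 and -5.01 under rapamycin, and under cycloheximide TFIIIA was the least negative, at -2.71 against -3.20 for TFIIIC. In the order of the members on each array, neighbours that both had 2 measured probes had overlapping probe ranges in every case. Neighbours without overlap were TFC6 and TFC7, TFC7 and PZF1, and PZF1 and TFC1 under rapamycin, and TFC4 and TFC8 under tunicamycin. Each of these pairs held a gene with 1 measured probe. Members farther apart in the order could separate with 2 probes each. Under rapamycin TFC6 stood at -8.63 and -8.12, and TFC1 at -6.14 and -5.44.

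Within TFIIIC the gene values of TFC1, TFC6 and TFC7 were -3.39 or lower on each array, and TFC3, TFC4 and TFC8 lay above them. TFC3 and TFC4 also lay above TFC1, TFC6 and TFC7 on each array when the lowest probe of each gene was used. The place of TFC8 under cycloheximide and rapamycin rests on averaging in its probe near 0. By the lowest probe of each gene TFC8 lay below TFC1 under cycloheximide, at -4.39 against -4.23, and below TFC7 under rapamycin, at -8.20 against -7.43. With whole-number ratios left out TFC8 had -3.88 under cycloheximide, against -2.87 for TFC1 and -3.54 for TFC6. With TFC8 left aside, each lobe held lower and higher gene values, TFC1 and TFC7 against TFC4 in the A box lobe and TFC6 against TFC3 in the B box lobe. This grouping was read from the same values and was not tested. Of the TFIIIC genes with both probes measured, 3 of 6, 3 of 5 and 2 of 4 had probes more than 3 apart on the log2 scale under cycloheximide, rapamycin and tunicamycin. Over all genes with exactly 2 measured probes that share was 6.89%, 13.4% and 11.9%, and among the subunits particular to RNA polymerase III it was 1 of 10, 0 of 4 and 3 of 9. It was 1 of 7, 3 of 5 and 2 of 7 among the shared subunits, and 2 of 15, 0 of 3 and 6 of 16 among the polymerase II general factors.

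The drugs were compared on probes measured on both arrays of a pair, since gene means rest on different probes where 1 is empty. Under rapamycin 13 of 13 member probes were lower than under cycloheximide, with a median difference of -2.81 and a range from -5.43 to -0.05. After quantile normalization of the 3 arrays the median difference was -1.50. Over all named probes 7463 of 13461 were lower, with a median difference of -0.26. The median difference was -2.86 over 13 probes of the subunits particular to polymerase III, -3.02 over 13 probes of the polymerase II general factors and -0.92 over 10 probes of the shared subunits. Among the members BRF1 showed the widest difference, -8.59 under rapamycin against -3.16 under cycloheximide in the same probe. The narrowest was that of the TFC8 probe near 0, at 0.27 against 0.32.

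Tunicamycin and cycloheximide were closer to each other. Of 14 member probes measured on both arrays 10 were lower under tunicamycin, and the median difference was -0.39, with a range from -3.56 in TFC6 to 2.29 in TFC7. Of 12 probes measured under rapamycin and tunicamycin 11 were lower under rapamycin, with a median difference of -2.42. The exception was the lower-numbered probe of TFC1, at -5.44 under rapamycin and -6.92 under tunicamycin. The drug and the array cannot be told apart in any of these differences, and the arrays differ in their lowest measured value, -7.48, -8.67 and -9.11 relative to the median.

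The polymerase itself gives the nearest comparison. Of its 10 subunits that are not shared with other polymerases, the rule called 8 of 10 depleted on the cycloheximide array (median -3.82), 4 of 4 on the rapamycin array (median -7.02 over 9 genes) and 8 of 9 on the tunicamycin array (median -4.69). Over all genes the rule called 15.2%, 6.45% and 13.6% depleted. RPO31 (YOR116C), the largest subunit, had -3.81 ± 0.82, -7.20 ± 0.61 and -3.97 ± 0.17 (n = 2 each). RPC34 (YNR003C), in the subcomplex that contacts TFIIIB, had -4.11 ± 0.55, -6.65 ± 0.43 and -4.53 ± 0.03 (n = 2 each). RET1 (YOR207C), the second largest subunit, was depleted under cycloheximide and rapamycin and had -0.81 ± 0.96 (n = 2) under tunicamycin, the highest of these subunits there. The difference between these medians and those of TFIIIC was not tested.

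Among the 7 subunits shared with other polymerases 3 of 7, 2 of 5 and 3 of 7 were depleted, with medians of -2.64, -4.11 and -2.79. RPC10 (YHR143W-A), common to all 3 polymerases, had the highest values of this list, -0.07 ± 0.42, 0.66 ± 0.48 and 0.84 ± 0.04 (n = 2 each). The polymerase II general factors had 10 of 15, 3 of 3 and 12 of 16 depleted, with medians of -3.73, -6.50 and -4.36. Both lists stand against 15.2%, 6.45% and 13.6% of all genes. TFB2 (YPL122C), a subunit of TFIIH, had the highest value of that list under cycloheximide, 2.46 ± 1.62 (n = 2), which was not called. On the amino acid and adenine synthesis list, chosen as genes outside the essential set, 52 of 56 genes were on the array, the medians were 0.03, -0.04 and 0.07, and 1 gene was depleted on each array, ADE13 (YLR359W). A list of the strains in the pool was not used here, so ADE13 may have had a strain in it.

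**Figure D3:**
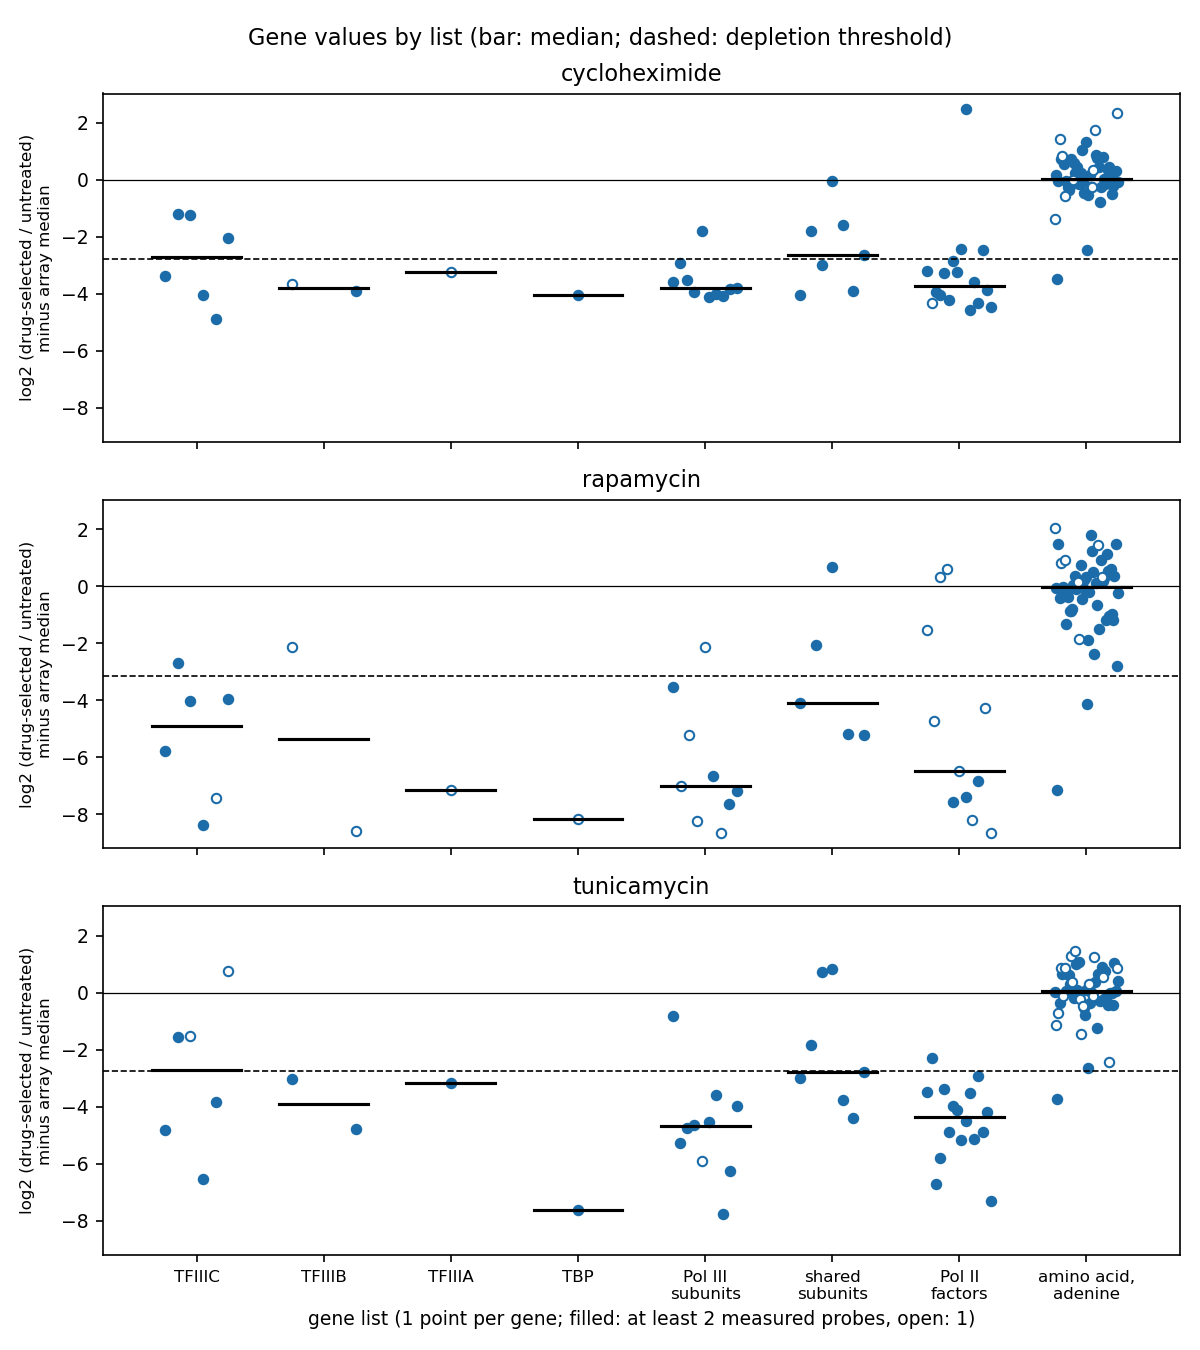
Gene values (log2 ratio minus the array median, vertical axis) by gene list, 1 panel per array and 1 point per gene, filled for genes with at least 2 measured probes and open for 1, with the list median as a bar and the depletion threshold dashed. The TFIIIC genes spread on both sides of the threshold, and the amino acid and adenine synthesis genes lie around 0 except for a few low ones.

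Counted by probe, 75.0%, 71.4% and 62.5% of the measured member probes lay at or below the depletion threshold under cycloheximide, rapamycin and tunicamycin. For the polymerase III subunits the shares were 75.0%, 84.6% and 84.2%, and for the polymerase II general factors 77.4%, 78.6% and 78.1%. They were 3.43%, 5.32% and 1.83% on the amino acid and adenine list and 9.28%, 9.09% and 9.14% over all named probes. Under rapamycin 4 of the 18 member spots were empty, against 12.7% over all named probes. The polymerase III subunits had 7 of 20 empty there and the polymerase II factors 18 of 32. Under cycloheximide and tunicamycin those lists had 0 and 1 of 20, and 1 and 0 of 32, and the members 2 of 18 on each. On the amino acid and adenine list 7.77% were empty under rapamycin, against 14.1% and 18.0% on the others. The rapamycin medians, shares and calls therefore leave out more spots in some lists than in others. Empty spots were not measured and are counted neither as low nor as unchanged.

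**Figure D4:**
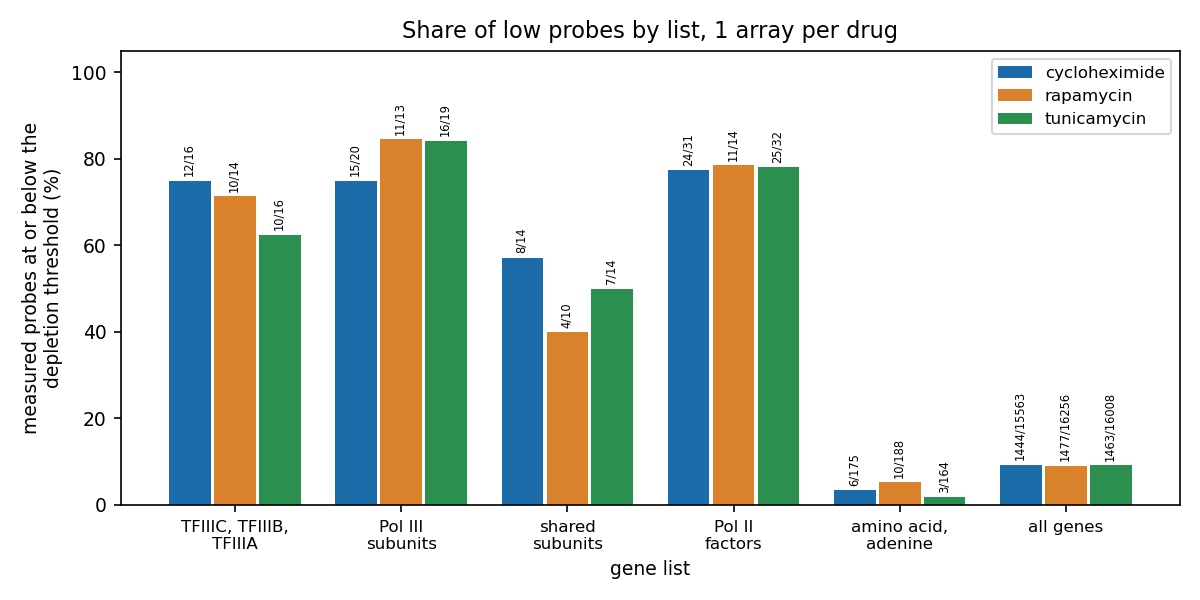
Share of measured probes at or below the depletion threshold of their array (vertical axis, percent) by gene list, with 1 bar for each drug and the counts above it. The TFIIIC, TFIIIB and TFIIIA bars stand between 62.5% and 75.0%, and those of all genes near 9%.

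By distance over the 3 arrays, among 4899 genes with a value on each, the 5 genes nearest to the TFIIIC medians were RPM2, the protein of mitochondrial RNase P, at 0.19, TUB2, beta-tubulin, at 0.31, RBA50 at 0.34, RPO26, a subunit shared by the polymerases, at 0.34, and CSR1 at 0.41 on the log2 scale. RPO26, for example, had -2.64, -5.23 and -2.79. The TFIIIC genes themselves lay 2.10 to 5.33 from their own medians, so the medians describe no single subunit. The 5 genes were picked as the nearest, so their smaller distances follow from that choice.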

How the data were processed

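The authors deposited 1 log2 ratio per spot for 22575 spots on each of 3 arrays. Base 2 was taken from the values, while the scanner, background correction and any normalization are not stated in the sources used here. In array order (cycloheximide, rapamycin, tunicamycin), 739, 196 and 526 spots held the value 16.61, which was read as a code and left out, as were 3156, 2821 and 2951 empty values. Probes were named through the platform annotation, 18794 with 1 gene each, and symbols were updated through RefSeq's R64 gene table, which held 5321 of 5325 genes. "Lower-numbered" and "higher-numbered" are probe numbers; which tag each is was not given. The array median was subtracted and probes of a gene were averaged. The scripts (Python 3.11.15, pandas 2.3.3, numpy 2.4.6) were tested on simulated data. Named genes are the members, SPT15, some extremes of each list, list genes past the threshold and the 5 nearest genes; MAF1 and the chromosomal neighbours were added after their values were seen. The members and lists were chosen with earlier results of these data known. Alternatives changed the code, centring, scaling, probe summary, whole-number ratios and call rule. The number of arrays limits the precision. Coordinates and sequences are not used here.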

Additional observations from a re-analysis of the deposited data

Results flagged for a closer look

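TRZ1 (YKR079C), the endonuclease that trims the 3′ end of transfer RNA precursors, was the only gene of the polymerase III related lists called enriched, at 4.61 ± 0.88 (n = 2) under tunicamycin. It had the opposite sign on the other arrays, -2.93 ± 1.82 (n = 2) under cycloheximide and -8.65 (n = 1) under rapamycin. The difference between drugs was not tested.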

How the results depend on the processing

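No paired analysis was possible because each drug had 1 array. The count of depleted members was 4 of 7, 2 of 5 and 5 of 7 under cycloheximide, rapamycin and tunicamycin. With the highest probe it was 1 of 7 under cycloheximide and 2 of 7 under tunicamycin. The same setting called 47 of 4121 and 398 of 4169 genes tested, with spread units of 1.30 and 1.23. With the lowest probe it was 4 of 5 under rapamycin, against 354 of 4015 genes. It was 5 of 9 under rapamycin when 1 measured probe was enough, against 599 of 5110 genes. At the stricter threshold it was 3 of 7 under tunicamycin, against 483 of 4169 genes. With whole-number ratios left out it was 0 of 4 under cycloheximide and 2 of 5 under tunicamycin. The genes tested fell there to 1442 and 1532, of which 6 and 423 were called, and the spread units rose to 1.64 and 1.43. The TFIIIC median with the highest probe was -1.11 under cycloheximide and -3.75 under rapamycin, and with the lowest probe -4.31, -6.79 and -4.08 on the 3 arrays. Under tunicamycin the TFIIIB median was -1.81 with the highest probe, -6.01 with the lowest and -5.34 with whole-number ratios left out, and the TFIIIA value -2.02 and -4.34 with the highest and lowest probe. Quantile normalization gave -4.81 for TFIIIB under cycloheximide, -5.93 for TFIIIA under rapamycin and -1.50 for the difference of rapamycin and cycloheximide. Without centring, which shifts values by the array medians of -0.74, -1.32 and -0.87, TFIIIC, TFIIIB and TFIIIA had -6.23, -6.68 and -8.47 under rapamycin. No member was enriched under any alternative run. Of 189 single member values under alternatives, 43 moved by 1 spread unit of their array or more. Leaving out whole-number ratios also moved the array medians, to -1.25 under cycloheximide and -1.11 under tunicamycin. Apart from the choice of probe, centring, and the medians and spread units recomputed from the spots kept, the cause of these changes was not tested.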

Other observations

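The chromosomal neighbours of the members, looked up after the members' values were known, are given here with the share of all genes called. Of the 18 adjacent protein-coding genes, all with a value under cycloheximide, 4 of 13 with at least 2 measured probes were depleted there, 1 of 9 under rapamycin and 4 of 12 under tunicamycin, against 15.2%, 6.45% and 13.6% of all genes, and their medians were -0.30, -0.03 and -0.38. The depleted neighbours under cycloheximide were UFD1 beside TFC4 at -3.92 ± 0.97, BCP1 beside TFC6 at -4.44 ± 0.85, SDA1 beside BRF1 at -3.92 ± 0.94 and GPI15 beside BDP1 at -4.06 ± 1.45 (n = 2 each). RPO26 lies beside PZF1 and was depleted under rapamycin and tunicamycin.

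The list of genes for processing of transfer RNA and 5S RNA or for regulation of the polymerase had 7 of 12, 3 of 6 and 6 of 10 members depleted under cycloheximide, rapamycin and tunicamycin, with medians of -2.93, -6.71 and -4.10. The shares over all genes were 15.2%, 6.45% and 13.6%. MAF1 (YDR005C), the repressor of RNA polymerase III that acts downstream of TOR and is not essential, had 0.24 ± 1.53 (n = 2) under cycloheximide, -2.71 ± 0.52 (n = 2) under rapamycin and -1.13 (n = 1) under tunicamycin, and was called on no array. LHP1 (YDL051W), the La protein that binds the ends of new polymerase III transcripts and is not essential, had 0.59 (n = 1), 0.38 ± 1.81 (n = 2) and 0.01 ± 0.51 (n = 2). Of the RNase P and RNase MRP proteins, which process transfer RNA and ribosomal RNA precursors, POP1 was depleted on all 3 arrays, at -3.92 ± 0.10, -6.71 ± 0.38 and -4.27 ± 1.47 (n = 2 each). POP3, another of these proteins, had -2.82 ± 2.79 (n = 2), 2.32 (n = 1) and -5.35 (n = 1) and was called on no array. Because a list of the pool's strains was not used here, MAF1 and LHP1 may have had none.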
